A study of Mus musculus with 19 samples.

Results

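The genes described here are the Zfp genes of the mouse that were expressed in brain, 234 of them. Each was represented by 1 probe set with a single gene symbol beginning with Zfp and a digit, and with log2 intensities averaging 4 or more across all 19 arrays. Where a gene had several such probe sets, the one with the highest mean was taken. The arrays carried 336 Zfp genes with a probe set of their own, so 234 of 336 (69.6%) met the level, compared with 57.5% of the 18193 genes with a single symbol. The genes were chosen by their symbol and this mean level, and the rule uses no difference between groups. It was set with earlier results of these data known. Just outside the level lay Zfp551 and Zfp783, both at 3.95, and Zfp652os at 3.89, and just inside lay Zfp39 at 4.01, Zfp11 at 4.06, Zfp688 and Zfp317, both at 4.09, and Zfp874b at 4.10. The highest means were those of Zfp365 at 12.39, Zfp445 at 11.85, Zfp106 at 11.24, Zfp871 at 10.98 and Zfp622 at 10.89. Probe sets differ in how strongly they bind, so these values set genes inside or outside the level and do not rank their expression. Of the 234 genes, 5 had a mean under 4 in at least 1 group, namely Zfp11, Zfp39, Zfp316, Zfp317 and Zfp874b. All 234 matched a gene of the RefSeq table under the same symbol, and 167 of them had 1 probe set above the level.

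RNA of whole brain was hybridised to single-colour Affymetrix arrays in 4 groups of male mice. SCA3 transgenic mice received CCI-779 (5 arrays) or placebo (5 arrays), and wild-type (wt) mice received CCI-779 (5 arrays) or placebo (4 arrays). SCA3, spinocerebellar ataxia type 3, is an inherited ataxia caused by a lengthened glutamine stretch in ataxin-3, and CCI-779 (temsirolimus) is an ester of rapamycin that inhibits the kinase mTOR. Treatment began at the age of 5 weeks and lasted 6 weeks, with 3 intraperitoneal injections a week of either 20 mg/kg of the drug or the placebo. The sources used here name neither the promoter of the transgene nor its repeat length nor the strain. They do not say whether the arrays came from separate mice, and the p-values below therefore measure a spread between samples that may be technical. No Zfp probe set measures the transgene, and the genotype labels were not checked here.

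Zfp symbols are given in the mouse to proteins with zinc fingers, short loops held by a zinc ion that read DNA or bind RNA or protein. Most are C2H2 fingers in long arrays, and many of these proteins also carry a KRAB box, which recruits the corepressor Trim28 and, through it, the histone methyltransferase Setdb1 and HP1 proteins to silence retroelements and nearby genes. The symbol also covers unrelated proteins: Zfp36l1 and Zfp36l2 bind AU-rich elements and bring the CCR4-NOT deadenylase to messenger RNA, Zfp598 marks collided ribosomes with ubiquitin, Zfp622 acts in maturation of the large ribosomal subunit, and Zfp207 (BuGZ) stabilises the checkpoint protein Bub3. KRAB zinc finger genes lie in clusters that grew by tandem duplication, and related copies can share sequence with one another's probes.

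Mean intensities ranged from 443 to 469 between arrays, and no 2 arrays held identical values. Hybridisation spike-ins, control transcripts added before hybridisation, were dimmer under CCI-779 than under placebo. They averaged 10.22 ± 0.09 log2 units in SCA3 CCI-779 and 11.05 ± 0.19 in SCA3 placebo (SD, n = 5 each; exact two-sided permutation test, p = 0.00794, adjusted over 4 tests 0.0159) and 9.90 ± 0.27 in wt CCI-779 (n = 5) and 10.81 ± 0.30 in wt placebo (n = 4; exact p = 0.0159, adjusted 0.0212). The Gapdh signal at the 3′ end minus that at the 5′ end, which reflects RNA integrity, was −0.35 ± 0.06 in SCA3 CCI-779 and −0.52 ± 0.03 in SCA3 placebo (exact p = 0.00794, adjusted 0.0159) and −0.28 ± 0.32 in wt CCI-779 and −0.54 ± 0.04 in wt placebo (exact p = 0.0317, adjusted 0.0317). No treated array reached the spike-in level of a placebo array of its genotype, so drug and spike-in level cannot be told apart. With spike-in intensity added to the limma fit 0 of the 234 Zfp genes and 0 of all genes passed for the drug in either genotype. Of the 234, 12 in SCA3 and 13 in wt had an unadjusted p under 0.05, and the share of all genes was not counted. With the Gapdh difference added instead, 11 Zfp genes were higher and 11 lower in SCA3, where 8.60% and 7.61% of all genes were, and 11 were higher and 0 lower in wt, where 3.26% and 0.870% of all were. Of the arrays, 3 stood apart. On replicate 1 of wt CCI-779, whose label carries no number, the Gapdh difference was 0.28 and that of actin 2.55, and 83 of the 234 Zfp genes (35.5%, against 26.4% of all tested genes) were higher there than on each of the other 18 arrays. Replicates 2 and 5 of SCA3 CCI-779 together lay above the other 17 arrays for 5 Zfp genes (2.14%, against 7.85% of all) and below them for 25 (10.7%, against 11.0%). Counts are given with and without these arrays. Neuronal markers were bright on every array, with a summed intensity of 82840 to 87366 over 8 genes in SCA3 CCI-779, 85449 to 89953 in SCA3 placebo, 82299 to 86619 in wt CCI-779 and 86004 to 90571 in wt placebo, and of 2 blood markers on the array 1 reached the level.

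Between CCI-779 and placebo, Zfp genes differed in both directions in SCA3 brains and mostly upwards in wt brains, as did all genes together. The drug and the spike-in level cannot be told apart in these differences. In SCA3, 15 of the 234 genes (6.41%) were higher under CCI-779 than under placebo, where 11.0% of all 10454 tested genes were, and 9 (3.85%) were lower, where 6.09% of all were (limma, adjusted p under the threshold of 0.05). In wt, 26 (11.1%) were higher, against 11.5% of all genes, and 2 (0.855%) were lower, against 1.64% of all. The median log2 difference of the 234 genes was −0.02 in SCA3 and 0.10 in wt, beside 0.00 and 0.08 over all tested genes. The quartiles of the Zfp genes lay at −0.14 and 0.10 in SCA3 and at −0.01 and 0.24 in wt, beside −0.12 and 0.16 and −0.04 and 0.23 over all genes. The calls include Zfp316 upwards in both genotypes and Zfp874b downwards in SCA3, which reached the level of 4 only through the groups where they were higher. Without the 2 SCA3 CCI-779 arrays that stood apart, 6 Zfp genes were higher and 1 was lower in SCA3, where 4.79% and 1.60% of all genes were. Without those and wt CCI-779 replicate 1, the counts were 15 and 4 in SCA3, against 7.87% and 2.91% of all genes, and 20 and 1 in wt, against 10.1% and 2.55%. Single arrays also moved the counts, and those over all genes with them. In wt they were 17 and 1 without CCI-779 replicate 1 (7.48% and 1.57% of all genes), 17 and 2 without CCI-779 replicate 3 (8.06% and 0.985%), 16 and 1 without placebo replicate 2 (6.54% and 0.698%), 15 and 0 without placebo replicate 3 (6.34% and 0.880%) and 18 and 0 without placebo replicate 4 (6.64% and 0.708%). In SCA3 the count lower was 4 without CCI-779 replicate 2 or 5 or placebo replicate 5 and 5 without placebo replicate 3 or 4, where 3.27% to 4.52% of all genes were lower. Centring each array on its median moved the split to 12 higher and 16 lower in SCA3, where 8.39% and 11.7% of all genes were, and to 13 and 3 in wt, where 5.49% and 5.25% were. The median over all genes was then −0.06 in SCA3 and −0.03 in wt.

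**Figure D1:**
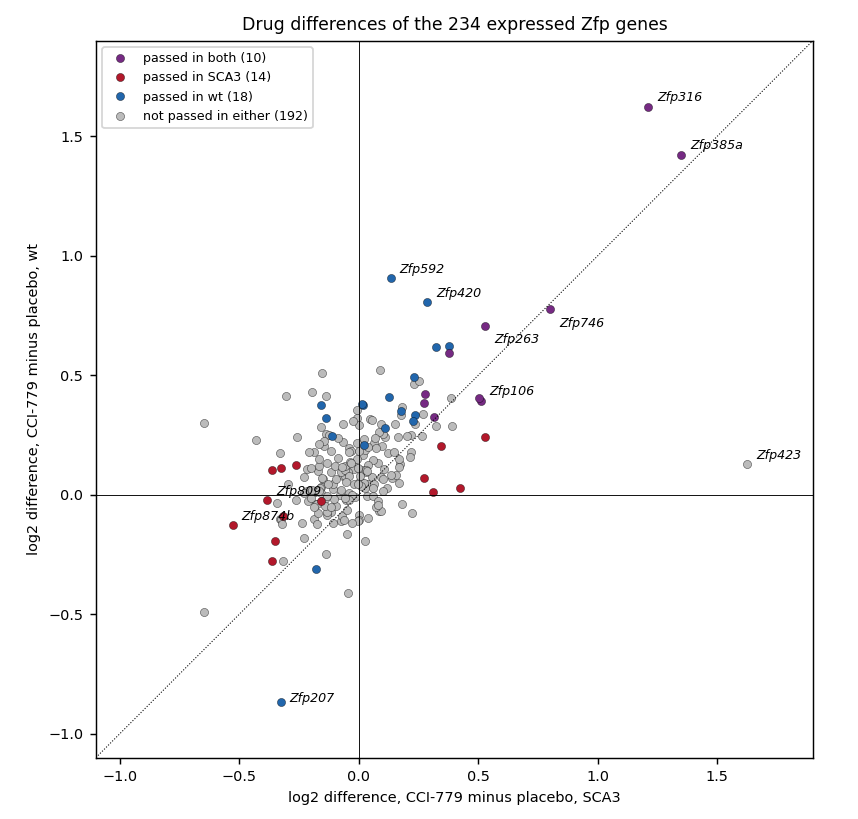
Each point is 1 of the 234 expressed Zfp genes, with the log2 difference between CCI-779 and placebo in SCA3 on the horizontal axis and in wt on the vertical axis; the dotted line marks equal differences. The 10 genes that passed in both genotypes lie to the upper right, and Zfp423, at 1.62 in SCA3, did not pass. At negative values in SCA3 and positive values in wt lie 78 genes, beside 2291 of all 10454 tested genes (not drawn).

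The 2 drug comparisons share no array. Over the 234 genes their log2 differences had Pearson's r = 0.60 (Spearman's rho = 0.47), beside 0.71 (0.67) over the 10454 genes, as a description across genes that share arrays within each comparison. The sign was the same in both genotypes for 143 of the 234 genes (61.1%), against 72.1% of all genes. In all, 92 genes were positive and 51 negative in both, while 78 were negative in SCA3 and positive in wt and 13 the reverse. Over all 10454 genes 2291 were negative in SCA3 and positive in wt and 623 the reverse. For the Zfp genes these opposite counts were 60 and 19 after median centring, and 54 and 14 without the 3 arrays that stood apart. A total of 42 genes passed in either genotype: 10 in both, all higher, 14 in SCA3 alone and 18 in wt alone. The share higher in both was 4.27%, against 5.96% of all genes, and no Zfp gene was lower in both, against 0.870% of all. No gene passed with opposite signs. The groups did not overlap for 14 genes higher (8.82% of all genes did so) and 6 lower (4.34%) in SCA3, and for 26 higher (14.1%) and 3 lower (2.42%) in wt.

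The probe sets of the Zfp genes had a median log2 intensity of 7.50, beside 8.60 over all tested genes, and a median SD within groups of 0.17, beside 0.15. Their means lay between 4 and 6 for 58 genes, between 6 and 8 for 92, between 8 and 10 for 71 and at 10 or more for 13. In SCA3, the share of higher genes among them was 3.45% in the dimmest of these classes, 6.52%, 8.45% and, in the brightest, 7.69%, against 3.42%, 9.14%, 13.3% and 13.8% of all tested genes in the same classes. In wt it was 3.45%, 13.0%, 14.1% and 15.4%, against 3.01%, 9.96%, 14.7% and 13.1%. The share of higher genes in SCA3 was below that of all genes in the 3 brighter classes and close to it in the dimmest. From the dimmest class to the brightest it rested on 2, 6, 6 and 1 Zfp genes. The share of lower genes in SCA3 was 3.45%, 3.26% and 5.63% in the 3 dimmer classes, against 1.92%, 3.19% and 5.48% of all genes. In the brightest class 0 of 13 Zfp genes were lower in SCA3, where 12.2% of all genes were.

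**Figure D2:**
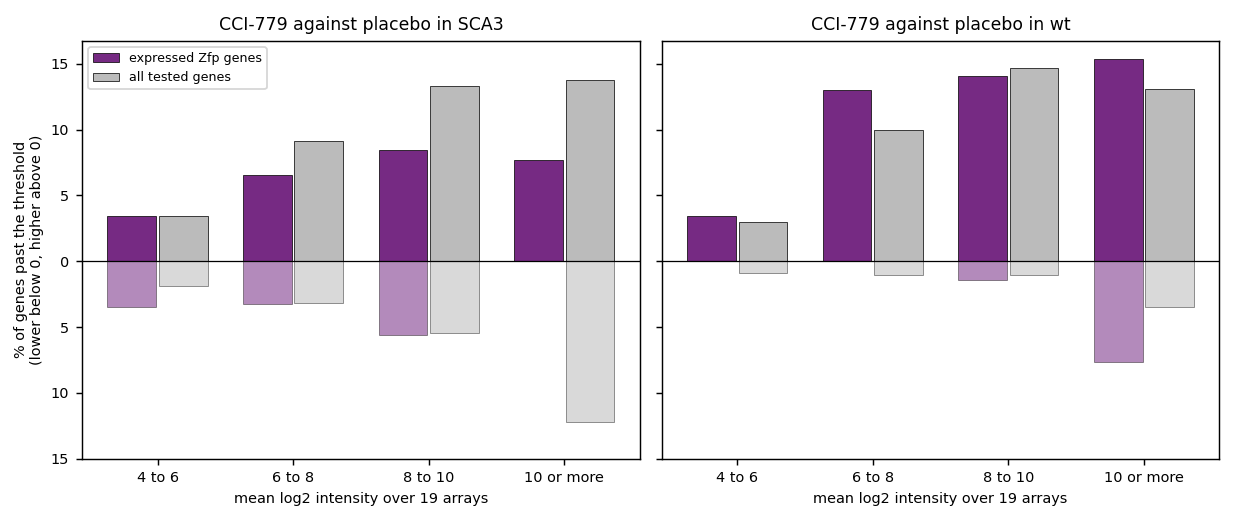
Bars give the percent of genes past the threshold, higher above 0 and lower (paler) below 0, by class of mean log2 intensity, for the expressed Zfp genes and all tested genes, with SCA3 on the left and wt on the right. The classes hold 58, 92, 71 and 13 Zfp genes, and in SCA3 the bars of the Zfp genes above 0 are shorter than those of all genes from a mean of 6 upwards. These SCA3 bars above 0 stand for 2, 6, 6 and 1 Zfp genes.

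Among the 10 genes that passed in both genotypes, the largest differences were those of Zfp385a and Zfp316. Zfp385a (Hzf), a zinc finger protein that binds RNA and p53 and is needed for the dendritic transport of the inositol trisphosphate receptor messenger in Purkinje cells, read 7.91, 8.90, 7.65, 8.29 and 9.06 log2 units in SCA3 CCI-779 brains, against 6.55, 7.05, 7.05, 7.42 and 6.99 in SCA3 placebo brains. It read 7.93, 7.64, 8.02, 7.68 and 7.59 in wt CCI-779, against 6.80, 5.35, 6.95 and 6.29 in wt placebo. All treated arrays lay above all placebo arrays of their genotype, and the highest 2 in SCA3 were those of replicates 2 and 5. The difference was 1.35 ± 0.29 (SE; 2.55-fold, adjusted p = 0.00544) in SCA3 and 1.42 ± 0.31 (2.68-fold, adjusted p = 0.00748) in wt. Without replicates 2 and 5 it was 0.94 in SCA3 (adjusted p = 0.0643). Zfp316 averaged 3.38 ± 1.03 in wt placebo, under the level, and its wt difference therefore has no exact fold. It read 5.34, 5.91, 4.80, 5.65 and 5.08 in SCA3 CCI-779, against 3.72, 4.63, 3.85, 4.57 and 3.94 in SCA3 placebo. Its wt CCI-779 values were 4.62, 4.63, 5.21, 5.16 and 5.41, against 4.84, 2.70, 2.60 and 3.40 in wt placebo. The groups did not overlap in SCA3, while in wt 1 placebo array lay above 2 treated ones. The fitted differences were 1.21 ± 0.35 in SCA3 (2.32-fold, adjusted p = 0.0259) and 1.62 ± 0.37 in wt (adjusted p = 0.0101), and the SCA3 call ended when any 1 of SCA3 CCI-779 replicates 2 and 4 or SCA3 placebo replicates 1, 3 and 5 was left out (adjusted p up to 0.0740).

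Zfp746 (PARIS), the KRAB protein that parkin marks for degradation and that represses the gene of the coactivator PGC-1α, was also higher in both. It read 7.64, 7.97, 7.32, 7.81 and 7.78 in SCA3 CCI-779, against 7.0, 6.54, 6.70, 7.08 and 7.18 in SCA3 placebo, and 8.05, 7.34, 7.65, 7.50 and 7.32 in wt CCI-779, against 7.19, 6.37, 6.63 and 6.99 in wt placebo. The groups did not overlap in either genotype, with differences of 0.80 ± 0.17 (1.74-fold, adjusted p = 0.00622) and 0.78 ± 0.19 (1.71-fold, adjusted p = 0.0130). Without wt placebo replicate 2 the wt call ended (adjusted p = 0.0536), and without SCA3 CCI-779 replicates 2 and 5 the SCA3 call did (0.69, adjusted p = 0.0607). Zfp263, a SCAN and KRAB protein, averaged 8.53 ± 0.10 in SCA3 CCI-779 and 8.0 ± 0.26 in SCA3 placebo, and 8.62 ± 0.20 in wt CCI-779 and 7.91 ± 0.20 in wt placebo. Neither pair of groups overlapped, and its second probe set rose in wt as well (0.68, adjusted p = 0.00845) and read 0.33 higher in SCA3 (adjusted p = 0.124). Its differences were 0.53 ± 0.12 (adjusted p = 0.00774) and 0.70 ± 0.13 (adjusted p = 0.00309), and leaving out both SCA3 CCI-779 replicates 2 and 5 ended the SCA3 call (0.48, adjusted p = 0.0619).

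The smallest adjusted p among the Zfp genes in SCA3 was that of Zfp106, an RNA-binding protein whose loss in mice leads to degeneration of motor neurons. Its probe set read 11.62, 11.62, 11.47, 11.49 and 11.43 in SCA3 CCI-779, against 11.06, 10.92, 11.03, 11.03 and 11.06 in SCA3 placebo. In wt it read 11.59, 11.31, 11.30, 11.51 and 11.23 under CCI-779, against 11.09, 11.01, 11.00 and 10.87 under placebo. No treated array overlapped a placebo array, and the differences were 0.51 ± 0.07 (1.42-fold, adjusted p = 3.73e-04) and 0.39 ± 0.07 (1.31-fold, adjusted p = 0.00375). The other 2 probe sets of Zfp106 went the other way without passing: −0.34 and −0.70 in SCA3 (adjusted p = 0.437 and 0.283) and −0.58 and −1.08 in wt (adjusted p = 0.199 and 0.120). The direction of Zfp106 therefore depends on the probe set.

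The other genes higher in both genotypes changed by less. Zfp84 was 0.50 higher in SCA3 and 0.41 higher in wt (adjusted p = 0.0111 and 0.0491), and Zfp61 0.38 (adjusted p = 0.0366) and 0.59 (adjusted p = 0.00632). Zfp462, a nuclear protein of neural development whose human counterpart is mutated in a neurodevelopmental syndrome, was 0.32 and 0.33 higher (adjusted p = 0.0281 and 0.0374), Zfp704 0.28 and 0.42 higher (adjusted p = 0.0422 and 0.00934) and Zfp869 0.27 and 0.38 higher (adjusted p = 0.0304 and 0.00916). The wt call of Zfp84 ended in 14 of the 19 fits that left out 1 array, and the SCA3 calls of Zfp61, Zfp462 and Zfp869 in 6 each and that of Zfp704 in 9.

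**Figure D3:**
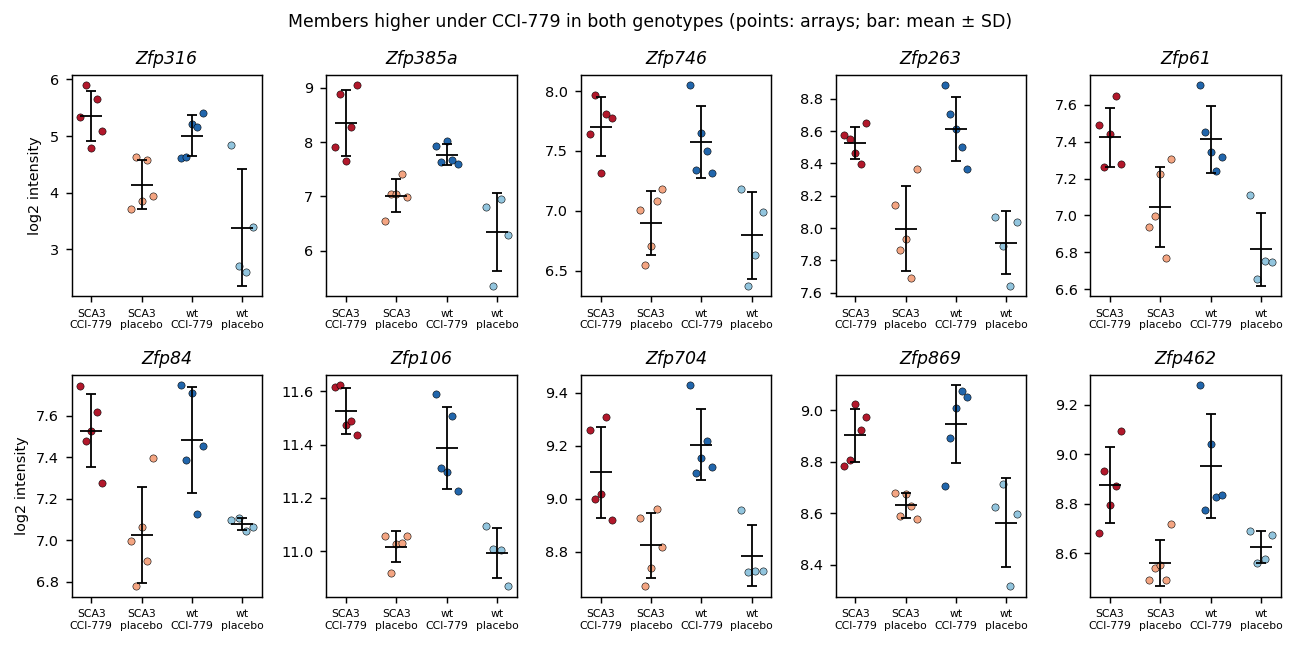
Log2 intensity of the 10 Zfp genes that passed upwards in both genotypes, with 1 point per array, the bar at the group mean and whiskers of 1 SD, and the groups from left to right SCA3 CCI-779, SCA3 placebo, wt CCI-779 and wt placebo. Each panel has its own axis; for Zfp385a, Zfp746, Zfp263 and Zfp106 every treated array lies above every placebo array of its genotype.

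Genes that rose in SCA3 and did not pass in wt were Zfp692, Zfp469, Zfp267, Zfp617 and Zfp513. Zfp692 (AREBP), which binds a regulatory element of the gene of the gluconeogenic enzyme Pck1, read 8.22, 8.29, 7.89, 8.26 and 8.29 in SCA3 CCI-779, against 7.60, 7.58, 7.90, 7.47 and 7.75 in SCA3 placebo. A single treated array, replicate 3, lay within the placebo range. The difference was 0.53 ± 0.12 (1.44-fold, adjusted p = 0.00907), beside 0.24 (adjusted p = 0.235) in wt. Zfp617 was 0.31 ± 0.07 higher in SCA3 (adjusted p = 0.00724) with no overlap, beside 0.01 in wt (adjusted p = 0.941). The other probe set of Zfp617 had the opposite sign in SCA3. Zfp267 was 0.35 ± 0.08 higher (adjusted p = 0.00754), beside 0.20 in wt (adjusted p = 0.116). Averaging a gene's probe sets ended the SCA3 calls of both Zfp617 and Zfp267. Zfp469, whose human counterpart is mutated in brittle cornea syndrome, was 0.43 ± 0.13 higher (adjusted p = 0.0411), with 5.62 on replicate 2 and 4.66 to 5.04 on the other treated arrays, against 4.42 to 4.64 under placebo. Without that array the difference was 0.27, and the call ended with any 1 of 9 arrays left out. Zfp513, whose human counterpart is linked to retinal degeneration, was 0.27 ± 0.07 higher (adjusted p = 0.0112), beside 0.07 in wt (adjusted p = 0.525). When SCA3 CCI-779 replicates 2 and 5 were both dropped, Zfp267 passed (0.37, adjusted p = 0.0281), while Zfp692 (0.46), Zfp617 (0.25), Zfp469 (0.33) and Zfp513 (0.26) did not, with adjusted p from 0.0507 to 0.0767. Of all 15 genes higher in SCA3, 5 passed without those 2 arrays, namely Zfp106, Zfp267, Zfp61, Zfp704 and Zfp84, and 12 passed without these and wt CCI-779 replicate 1. The test of the difference between the genotypes passed for none of the 5 genes above.

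Of the 9 Zfp genes that fell under CCI-779 in SCA3, Zfp874b, Zfp809, Zfp563 and Zfp948 had the largest fitted differences. Zfp874b, a KRAB gene at the edge of the level, read 4.02, 4.06, 3.48, 3.84 and 3.62 in SCA3 CCI-779, against 4.07, 4.07, 4.32, 4.58 and 4.62 in SCA3 placebo. The groups did not overlap, but the highest treated array and the lowest placebo arrays were nearly level. Its mean in SCA3 CCI-779 was 3.80, under the level, so the fitted difference of −0.53 ± 0.13 (adjusted p = 0.0101) has no exact fold, and it was −0.13 in wt (adjusted p = 0.549). Zfp809, a KRAB protein that silences murine leukaemia virus through its primer binding site, read 7.08, 7.09, 7.34, 7.38 and 6.83 in SCA3 CCI-779, against 7.54, 7.43, 7.47, 7.68 and 7.51 in SCA3 placebo. All treated arrays were below all placebo arrays, with a difference of −0.38 ± 0.11 (adjusted p = 0.0292), beside −0.02 in wt (adjusted p = 0.920). In wt CCI-779, replicate 1 read 7.98 for Zfp809 and the others 7.35 to 7.50. Without SCA3 CCI-779 replicates 2 and 5 the SCA3 difference of Zfp809 was −0.26 (limma, adjusted p = 0.203). Zfp948 read 8.13, 7.54, 8.03, 7.97 and 8.07 in SCA3 CCI-779, against 8.17, 8.16, 8.32, 8.51 and 8.40 in SCA3 placebo, also without overlap (−0.36 ± 0.11, adjusted p = 0.0306). It was 0.11 higher in wt (adjusted p = 0.565).

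Zfp367 averaged 8.60 ± 0.13 in SCA3 CCI-779 and 8.86 ± 0.08 in SCA3 placebo (−0.26 ± 0.07, adjusted p = 0.0246), with 1 treated array level with the lowest placebo array. The remaining falls in SCA3 were those of Zfp563 (−0.36, adjusted p = 0.0439), Zfp593 (−0.35, adjusted p = 0.0325), Zfp975 (−0.33, adjusted p = 0.0146), Zfp655 (−0.32, adjusted p = 0.0298) and Zfp131 (−0.16, adjusted p = 0.0435), a BTB-domain zinc finger protein. Of the 9 falls, 2 held in all 19 fits that left out 1 array, those of Zfp874b and Zfp975, and that of Zfp367 held in 17. Zfp874b averaged 3.80 in SCA3 CCI-779, under the level of 4. The other probe set of Zfp975 had the opposite sign in SCA3, and averaging its probe sets ended its call. With SCA3 CCI-779 replicates 2 and 5 left out, Zfp874b alone of the 9 passed (−0.55, adjusted p = 0.0335). The differences of Zfp367 (−0.27), Zfp593 (−0.33) and Zfp975 (−0.27) then kept a similar size without passing (adjusted p = 0.0843, 0.141 and 0.0872). When wt CCI-779 replicate 1 was dropped in addition, Zfp874b (adjusted p = 0.0253), Zfp809 (0.0331) and Zfp367 (0.0473) passed. Among oligodendrocyte markers, 3 of 7 tested also fell in SCA3 (42.9%, against 6.09% of all genes; median −0.32) and 0 of 7 in wt (against 1.64%; median −0.04), and among microglial markers 3 of 7 fell in each genotype (42.9%). The summed intensity of the 7 oligodendrocyte markers was 68422 to 75586 in SCA3 CCI-779, against 78689 to 102395 in SCA3 placebo, and 64473 to 79679 in wt CCI-779, against 76131 to 91487 in wt placebo. For the 7 microglial markers it was 2843 to 3612 in SCA3 CCI-779, against 3856 to 4318 in SCA3 placebo, and 2714 to 3297 in wt CCI-779, against 3876 to 4368 in wt placebo, and 1 listed microglial gene was under the level. Of the other marker lists, 1 of 8 neuronal markers fell in each genotype, 1 of 8 astrocyte markers rose in SCA3 and 2 in wt, 2 of 6 meningeal and fibroblast markers rose in SCA3 and 1 in wt, and none of 5 endothelial or 7 choroid plexus markers passed, where 11.0% of all genes rose in SCA3 and 11.5% in wt. The part of these cell types in the Zfp differences was not tested, and in whole tissue fewer cells of a type and less RNA per cell cannot be told apart.

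**Figure D4:**
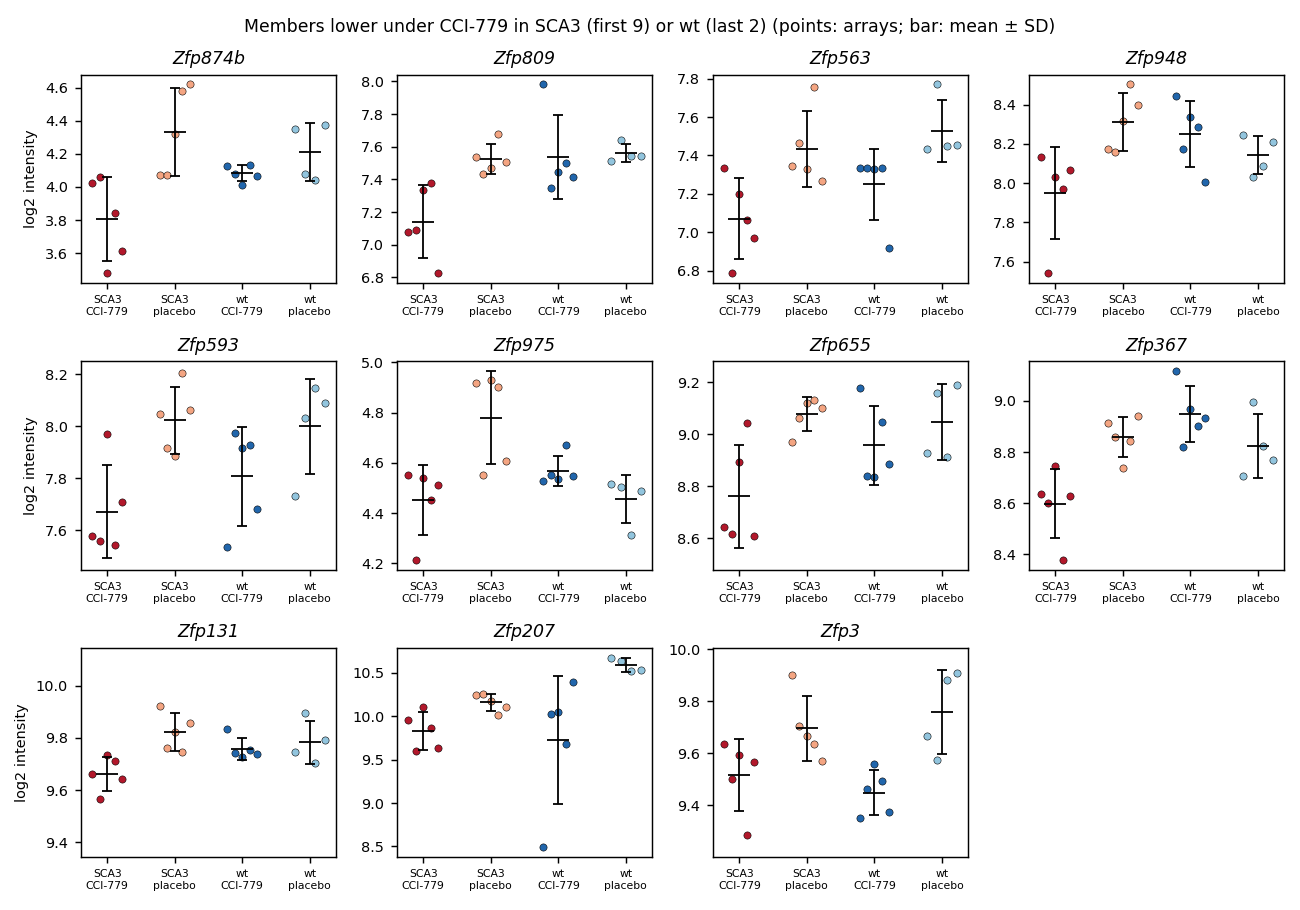
Log2 intensity per array of the 9 Zfp genes that fell under CCI-779 in SCA3 and, in the last 2 panels, of Zfp207 and Zfp3, which fell in wt; bars are group means and whiskers 1 SD, with groups from left to right SCA3 CCI-779, SCA3 placebo, wt CCI-779 and wt placebo. Each panel has its own axis, and replicate 1 of wt CCI-779, the left point of its group, is the lowest point for Zfp207 and the highest for Zfp809.

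In wt brains the changes that did not pass in SCA3 were led by Zfp592, a partner of Zmynd8 and Zfp687 in a chromatin complex. It read 7.61, 6.85, 7.23, 7.64 and 6.88 in wt CCI-779, against 6.52, 6.20, 6.21 and 6.42 in wt placebo. All treated arrays were higher, by 0.91 ± 0.16 (1.87-fold, adjusted p = 0.00291), while in SCA3 the values were 6.65 to 7.05 under CCI-779 and 6.38 to 6.89 under placebo (0.13 ± 0.15, adjusted p = 0.597). Zfp420 (Apak), a KRAB protein that restrains p53, read 7.75, 7.26, 7.70, 7.49 and 7.22 in wt CCI-779, against 7.0, 6.32, 6.55 and 6.85 in wt placebo. The groups did not overlap (0.80 ± 0.16, 1.75-fold, adjusted p = 0.00498), and the SCA3 difference was 0.29 (adjusted p = 0.209). Zfp512b, whose human counterpart has been linked to amyotrophic lateral sclerosis, was 0.62 higher in wt (adjusted p = 0.00527) and 0.32 in SCA3 (adjusted p = 0.0692). Zfp866 was 0.62 higher (adjusted p = 0.0281) and Zfp2 0.41 higher (adjusted p = 0.00692).

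Zfp598, the ubiquitin ligase of stalled ribosomes, read 9.04, 8.42, 8.09, 8.49 and 8.25 in wt CCI-779, against 8.23, 7.83, 7.64 and 8.16 in wt placebo. Replicate 1 was the highest, and the groups overlapped. The difference was 0.49 ± 0.15 (adjusted p = 0.0440), and without replicate 1 it was 0.35 and did not pass. Zfp207 fell by 0.87 ± 0.25 in wt (adjusted p = 0.0333), with 8.49, 10.02, 10.05, 9.68 and 10.40 under CCI-779, against 10.68, 10.64, 10.52 and 10.54 under placebo. Replicate 1 was again the farthest, and without it Zfp207 fell by 0.56. Another of its 5 probe sets rose in wt (0.51, adjusted p = 0.0115), so the probe sets of Zfp207 passed in opposite directions. Zfp3 fell by 0.31 ± 0.09 (adjusted p = 0.0302) and lost its call when wt CCI-779 replicate 1 or 5 or wt placebo replicate 3 or 4 was left out. The other 10 genes higher in wt alone, each by 0.21 to 0.38, were Zfp383, Zfp428, Zfp512, Zfp518a, Zfp518b, Zfp644, Zfp709, Zfp740, Zfp775 and Zfp995.

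The promoters of the 3 genes with the largest mean difference among those that rose in both genotypes, and of the 4 with the largest difference among those that fell in SCA3, are shown to set their sequence beside these results. They are RefSeq sequences of GRCm38.p6, each of 300 bases around a transcription start, most of them upstream, 5′ to 3′ on the strand of the gene, and capitals mark the GC box GGGCGG and the CRE core TGACG on either strand.
Zfp385a: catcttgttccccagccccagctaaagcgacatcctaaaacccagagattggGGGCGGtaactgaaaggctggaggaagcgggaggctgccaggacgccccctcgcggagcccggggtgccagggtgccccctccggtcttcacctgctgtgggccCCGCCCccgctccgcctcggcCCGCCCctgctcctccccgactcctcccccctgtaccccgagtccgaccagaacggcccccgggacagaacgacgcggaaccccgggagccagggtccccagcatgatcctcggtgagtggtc
Zfp316: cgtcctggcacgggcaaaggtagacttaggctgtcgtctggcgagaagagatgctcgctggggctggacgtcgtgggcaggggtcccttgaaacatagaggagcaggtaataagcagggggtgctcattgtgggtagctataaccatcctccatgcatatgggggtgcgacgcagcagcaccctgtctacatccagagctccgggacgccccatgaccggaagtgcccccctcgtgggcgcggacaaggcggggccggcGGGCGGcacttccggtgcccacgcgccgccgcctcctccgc
Zfp746: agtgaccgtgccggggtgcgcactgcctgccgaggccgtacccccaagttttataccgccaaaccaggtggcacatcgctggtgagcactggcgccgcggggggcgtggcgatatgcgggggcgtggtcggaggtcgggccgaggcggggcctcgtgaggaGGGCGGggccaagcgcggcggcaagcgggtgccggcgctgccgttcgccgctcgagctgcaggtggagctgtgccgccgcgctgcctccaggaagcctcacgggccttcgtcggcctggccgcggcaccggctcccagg
Zfp874b: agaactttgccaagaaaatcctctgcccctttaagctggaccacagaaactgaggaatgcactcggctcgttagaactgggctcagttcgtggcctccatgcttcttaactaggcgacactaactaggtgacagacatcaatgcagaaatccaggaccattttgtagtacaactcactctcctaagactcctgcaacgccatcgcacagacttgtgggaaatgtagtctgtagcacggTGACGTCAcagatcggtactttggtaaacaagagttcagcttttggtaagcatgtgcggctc
Zfp809: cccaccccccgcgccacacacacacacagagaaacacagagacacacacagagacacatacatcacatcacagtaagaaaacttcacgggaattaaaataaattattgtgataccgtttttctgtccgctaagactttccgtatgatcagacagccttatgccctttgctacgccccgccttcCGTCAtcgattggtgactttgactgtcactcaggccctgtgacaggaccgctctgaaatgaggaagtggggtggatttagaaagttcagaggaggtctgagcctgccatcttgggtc
Zfp563: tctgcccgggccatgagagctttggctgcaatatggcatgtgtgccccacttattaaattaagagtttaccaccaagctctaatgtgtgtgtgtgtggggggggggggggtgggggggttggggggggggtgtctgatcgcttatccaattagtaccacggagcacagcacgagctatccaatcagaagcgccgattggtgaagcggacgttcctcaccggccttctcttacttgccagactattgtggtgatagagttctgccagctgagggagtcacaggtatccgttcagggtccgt
Zfp948: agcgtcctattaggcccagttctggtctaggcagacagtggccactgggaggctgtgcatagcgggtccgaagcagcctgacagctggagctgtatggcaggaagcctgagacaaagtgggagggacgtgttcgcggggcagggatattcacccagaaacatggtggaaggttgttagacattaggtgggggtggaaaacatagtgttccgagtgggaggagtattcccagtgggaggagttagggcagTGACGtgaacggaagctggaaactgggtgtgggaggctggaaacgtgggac
Those of the risen genes lie at chr15:103340037-103340336, chr5:143269973-143270272 and chr6:48086544-48086843, all on the minus strand. Those of the fallen genes lie at chr13:67484204-67484503 on the minus strand and at chr9:22225453-22225752, chr17:33089117-33089416 and chr17:21566728-21567027 on the plus strand. Zfp385a and Zfp809 have a second listed start, not shown. Zfp316 in wt placebo and Zfp874b in SCA3 CCI-779 averaged under the level of 4.

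The 3 promoters of risen genes hold 3, 1 and 1 GC boxes and no CRE core, and those of the fallen genes hold no GC box and 2, 1, 0 and 1 CRE cores, of which the 2 of Zfp874b overlap in TGACGTCA. This split does not run through the other genes. Of the others that rose in both, Zfp263 and Zfp61 hold a CRE core, and Zfp84, Zfp61 and Zfp869 hold no GC box. Of the others that fell in SCA3, Zfp655, Zfp367 and Zfp131 hold a GC box, and Zfp975 holds no CRE core. Over all listed promoters the GC box was found in 47.9% of the 238 promoters of 193 Zfp genes, beside 46.2% of 21263 promoters of protein-coding genes. The CRE core was found in 34.9%, beside 23.6% of all. By outcome, the GC box was present in 19 of 32 promoters (59.4%) of the 28 listed genes that rose in either genotype and in 5 of 13 (38.5%) of the 10 that fell. The CRE core was present in 10 of 13 promoters (76.9%) of those that fell and in 9 of 32 (28.1%) of those that rose. By gene the CRE core counts were 8 of 10 and 9 of 28, against 76 of 193 over the Zfp genes. Promoters of 1 gene can overlap, 9 motifs were searched, and the count is a description of letters in these windows with no test.

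The genotype itself passed for no Zfp gene in limma's test. Between SCA3 and wt under CCI-779, 0 of the 234 genes passed, beside 0 higher and 0.0191% lower of all genes, and 57 (24.4%) had an unadjusted p under 0.05, against 18.1% of all. Under placebo 0 passed, beside 0 of all genes, with 15 (6.41%) under an unadjusted 0.05, against 5.32% of all. Nearest under CCI-779 were Zfp37 (−0.32), Zfp367 (−0.35) and Zfp711 (−0.62), each at an adjusted p of 0.111, then Zfp513 (0.28, 0.130 adjusted) and Zfp758 (−0.35, 0.149 adjusted). Zfp37 read 8.69, 8.47, 8.79, 8.83 and 8.65 in SCA3 CCI-779, against 9.03, 8.96, 9.08, 9.06 and 8.89 in wt CCI-779. All SCA3 arrays were lower. Zfp711, an X-linked gene whose human counterpart is mutated in intellectual disability, read 8.40, 8.06, 8.84, 8.72 and 8.30 in SCA3 CCI-779, against 9.41, 8.96, 8.99, 9.14 and 8.93 in wt CCI-779, again without overlap. Under placebo the nearest were Zfp975 (0.32), Zfp955b (−0.39), Zfp709 (0.34), Zfp775 (0.35) and Zfp592 (0.45), with adjusted p from 0.556 to 0.709.

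The drug effect was not shown to differ between the genotypes for any single Zfp gene. The interaction, the SCA3 minus the wt difference, passed for 0 of 234 genes, beside 0 of all genes, and 36 (15.4%) had an unadjusted p under 0.05, against 8.30% of all. It was negative for 182 of the 234, beside 7052 of all 10454 genes. The median was −0.13, beside −0.07 over all genes. Under CCI-779 the SCA3 minus wt difference was likewise negative for 177, beside 6414 of all 10454 genes. Its median was −0.10, beside −0.04 over all genes, and it shares the treated arrays with the interaction. Without wt CCI-779 replicate 1 the interaction was negative for 161, where 62.4% of all genes were, with a median of −0.09, beside −0.04 over all. Without the 3 arrays that stood apart it was negative for 150, where 58.7% of all genes were, with −0.04, beside −0.03 over all. Lowest in p were Zfp182 (−0.72), Zfp975 (−0.44), Zfp383 (−0.36), Zfp367 (−0.39) and Zfp592 (−0.77), each with an adjusted p of 0.518. Zfp182, an X-linked KRAB gene, read 6.14, 5.95, 6.19, 5.89 and 5.88 in SCA3 CCI-779, against 6.59, 6.35, 6.01, 6.55 and 6.09 in SCA3 placebo, and 6.65, 6.11, 6.61, 6.52 and 6.19 in wt CCI-779, against 6.00, 6.15, 5.94 and 5.91 in wt placebo. Its values leaned downwards in SCA3 and upwards in wt, and the groups overlapped in both.

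A few genes turned on single arrays. Zfp423, a transcription factor of cerebellar development and fat cell precursors, read 4.74, 8.05, 4.73, 4.79 and 7.97 in SCA3 CCI-779, against 4.03, 3.95, 4.73, 4.71 and 4.74 in SCA3 placebo. Only replicates 2 and 5 were high, and the 14 arrays of the other groups lay between 3.95 and 5.12. The difference of 1.62 ± 0.56 did not pass (adjusted p = 0.0603). Zfp60, named after its values were seen, read 5.32, 5.29, 5.34, 5.24 and 4.90 in SCA3 CCI-779, against 5.86, 6.00, 5.88, 5.74 and 5.85 in SCA3 placebo. The groups were apart by −0.65 ± 0.30, but the test did not pass (adjusted p = 0.150). Its wt CCI-779 values were 3.87 on replicate 1 and 5.85 to 6.05 on the others, against 5.76 to 6.29 in wt placebo, and the arrays share 1 estimate of the spread. Without that array Zfp60 passed in SCA3 (−0.65, adjusted p = 9.61e-04), as it did when the SCA3 arrays were fitted alone, and between SCA3 and wt under CCI-779 (−0.71, adjusted p = 0.0410), the 1 call of a Zfp gene by genotype in any setting tried.

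**Figure D5:**
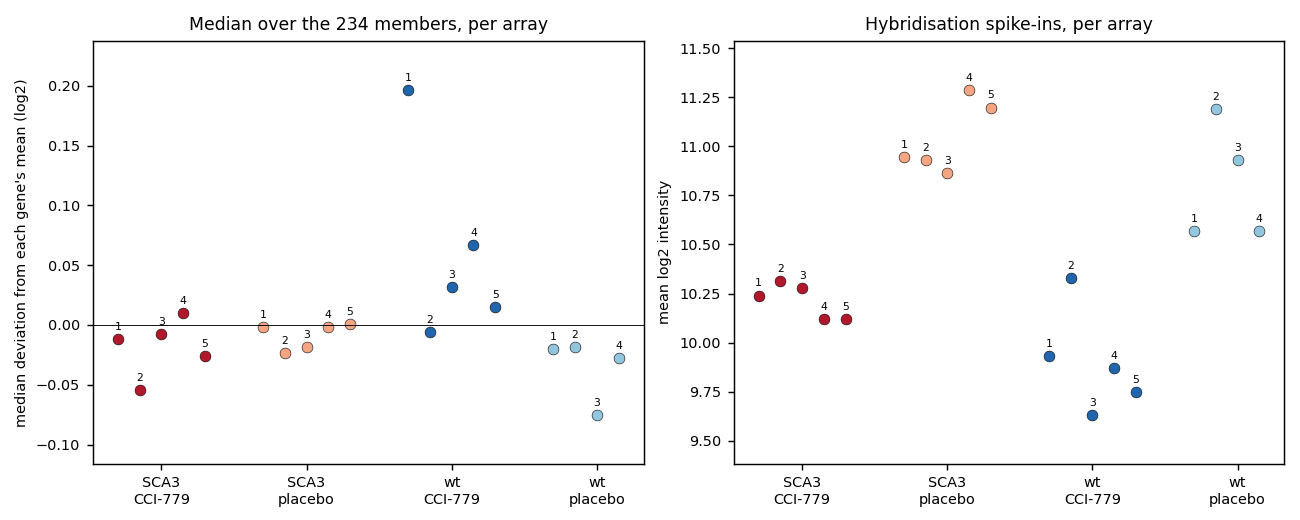
On the left, the median over the 234 Zfp genes of each gene's deviation from its mean over 19 arrays (log2), and on the right the mean log2 intensity of the hybridisation spike-ins, with 1 point per array labelled by replicate and the groups from left to right SCA3 CCI-779, SCA3 placebo, wt CCI-779 and wt placebo. Replicate 1 of wt CCI-779 lies at 0.20 on the left, where the other 18 arrays lie between −0.08 and 0.07, and on the right all treated arrays lie below all placebo arrays of their genotype.

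Of 36 Zfp genes with well known roles that were named whatever their values, 28 were among the genes described here. Those of the 28 not yet described gave no call on their brightest probe set. The rest of the 36 had no probe set that met the rule of symbol and level, and whether they were expressed was not tested. Neither of the messenger decay factors passed. Zfp36l2 averaged 9.21 ± 0.19 in SCA3 CCI-779 and 8.83 ± 0.36 in SCA3 placebo, and 9.37 ± 0.28 in wt CCI-779 and 8.96 ± 0.17 in wt placebo (0.39 and 0.40, adjusted p = 0.109 and 0.120). Zfp36l1 differed by 0.00 and −0.09 (adjusted p = 0.994 and 0.712). Of 18 tested genes of the CCR4-NOT complex and messenger decay, their partners, 3 rose (16.7%, against 11.0% of all genes in SCA3 and 11.5% in wt) and 1 fell (5.56%, against 6.09% and 1.64%) in each genotype. Tob2, an adaptor of the complex, rose by 0.70 in SCA3 and 0.95 in wt, and Cnot7, one of its deadenylases, fell by 0.41 and 0.30.

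The other genes of neural development or neuronal function on that list did not pass. Zfp365 (DBZ), a partner of Disc1 in neurite growth, differed by 0.11 in SCA3 and 0.24 in wt (adjusted p = 0.456 and 0.108), and Zfp804a, the counterpart of a human schizophrenia risk gene, by −0.20 and 0.02 (adjusted p = 0.0508 and 0.874). Zfp335, needed by neural progenitors, gave −0.14 and −0.25, Zfp503 of the developing striatum 0.27 and 0.34, Zfp521 −0.21 and −0.03 and Zfp536, a repressor of neuronal differentiation, −0.13 and −0.07. Zfp410, known as an activator of the remodeller gene Chd4, was 0.09 and 0.52 higher (adjusted p = 0.763 and 0.0589), and Chd4 itself 0.19 and 0.07 (adjusted p = 0.272 and 0.718). Values for Zfp687, the partner of Zfp592, were 0.39 and 0.29, for Zfp385b, the relative of Zfp385a, −0.14 and −0.02, and for the ubiquitin ligase Zfp91 0.17 and 0.15. The other 5, Zfp148, Zfp281, Zfp326, Zfp622 and Zfp638, lay between −0.20 and 0.11 in both genotypes. Zfp318, a regulator of immunoglobulin transcripts in B cells, gave −0.07 on its brightest probe set in SCA3, whereas its dimmest averaged 6.28 ± 0.37 in SCA3 CCI-779 and 4.87 ± 0.55 in SCA3 placebo (1.41, adjusted p = 8.46e-04).

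Of 23 tested genes of the KRAB corepressor and heterochromatin list, 4 were higher in SCA3 (17.4%, against 11.0% of all genes) and 6 in wt (26.1%, against 11.5%). None was lower, against 6.09% and 1.64% of all genes, and the medians were 0.07 and 0.10, beside 0.00 and 0.08 over all genes. Trim28, the corepressor itself, averaged 10.27 ± 0.10 in SCA3 CCI-779 and 9.76 ± 0.09 in SCA3 placebo (0.51, adjusted p = 3.13e-04) and 10.28 ± 0.12 in wt CCI-779 and 9.63 ± 0.09 in wt placebo (0.65, adjusted p = 2.04e-04). Chd3, a nucleosome remodeller that Trim28 recruits, rose by 0.68 and 0.72, and Cbx5, an HP1 protein, by 0.55 and 0.50. Setdb1 was 0.07 and 0.28 higher without passing (adjusted p = 0.725 and 0.167). For other zinc finger families the counts stand beside the same shares of all genes, 11.0% higher and 6.09% lower in SCA3 and 11.5% and 1.64% in wt. In SCA3 0 of 28 Zbtb genes passed, while 3 (10.7%) rose and 1 (3.57%) fell in wt. Of 13 Zscan and Zkscan genes 1 rose in SCA3 and 2 in wt, with Zkscan16 in both, and of 13 Klf genes 1 (Klf5) rose in SCA3 and 2 (Klf2 and Klf6) in wt. Among zinc-binding proteins of other kinds, 2 of 12 Zc3h genes rose in SCA3 and 3 in wt, 2 of 19 Zdhhc genes rose and 2 fell in SCA3 and 2 rose in wt, 2 of 7 Zfand genes fell in SCA3 and 1 rose and 1 fell in wt, and 1 of 5 Zmym genes rose in each.

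A second probe set rarely bore out a call. In SCA3, 7 of the 24 genes that passed had another probe set above the level: for 0 of them did another pass the same way, for 4 all others had the same sign, and for 3 at least 1 had the opposite sign. In wt this was so for 8 of 28: for 2, Zfp263 and Zfp995, another passed the same way, for 4 at least 1 had the opposite sign, and for Zfp207 one passed the opposite way. Conversely, 5 genes in SCA3 (Zfp292, Zfp318, Zfp322a, Zfp574 and Zfp622) and 7 in wt (Zfp40, Zfp128, Zfp148, Zfp292, Zfp827, Zfp871 and Zfp930) passed on a dimmer probe set and not on the brightest. Zfp292, whose dimmer probe set rose by 0.59 in SCA3 and 0.52 in wt (adjusted p = 0.00776 and 0.0257), is the 1 gene on both of these lists. Exactly repeated values on 3 or more arrays were found for 41 of the 234 genes (17.5%, against 11.8% of all) and for 3 of the 42 that passed in either genotype.

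Expressed Zfp genes often lay side by side in the genome, with 78 of 234 (33.3%) next to another in the RefSeq gene order, in 52 neighbouring pairs. Neighbours had the same sign in 61.5% of these pairs in SCA3 and in 63.5% in wt, beside 50.3% and 60.1% over all pairs of the 234 genes, and in no pair did both pass the same way. The longest run held 8 genes from Zfp84 to Zfp74, with Zfp30, Zfp790, Zfp940, Zfp420, Zfp27 and Zfp383 between them. Its members did not move as a block: Zfp84 passed in both genotypes, Zfp420 and Zfp383 in wt alone, and 5 of the 8 were negative in SCA3. In the run of 6 from Zfp398 to Zfp746 all 6 were positive in wt and 1 was negative in SCA3. In the run of 5 from Zfp51 to Zfp983, which holds Zfp948, all 5 were negative in SCA3 and all 5 positive in wt. Copies within such runs can share probe sequence, and whether they do here was not tested.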

How the data were processed

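Whole brain RNA of 19 samples was hybridised to Affymetrix arrays, 1 array per sample. The deposited values were linear intensities, background-corrected, normalised and summarised per probe set with GCRMA by the authors, per the submitters' processing notes, whose version was not given in the sources used here. Samples were grouped by their labels. Intensities were taken to log2 without a pseudocount. Of 45101 probe sets, 64 control probe sets and those with a mean log2 under 4 were left out, and 20473 were tested. Probe sets were named by the platform's gene table, and genes by their brightest tested probe set with a single symbol (10454 genes).

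All 19 arrays entered 1 limma fit (version 3.58.1, R 4.3.3) with 4 group means and 15 residual degrees of freedom, moderated by eBayes, with 5 contrasts and Benjamini-Hochberg adjustment over the 20473 probe sets at 0.05. The fit was tested on 10 simulated data sets per drug comparison. It recovered 69% of changes of 0.5 log2 units in SCA3 and 65.9% in wt, and 93.9% and 92.4% of changes of 1. Of its calls 5.67% and 5.72% were false. The simulated noise was independent for each probe set, with no array that stood apart and no spike-in shift, unlike these data. The SE is that of the moderated fit, and error signs elsewhere are SD. The number of arrays limits the precision. Mean intensity per array is given in place of depth.

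Genes were named as the up to 12 with the largest differences past the threshold in each direction and drug comparison, the 5 lowest p-values for genotype and interaction, and a list of well known members. The members and lists were chosen with earlier results of these data known. In their deviations from the group means, 9 of 24 same-numbered pairs of samples correlated above 0.1. Their median was 0.03, beside −0.0054 over 97 other pairs. The main fit took the samples as unpaired, and whether a shared number marks a batch was not tested. Alternatives covered the filter, scaling, variance model, array weights, arrays fitted, probe set choice, covariates, thresholds and arrays left out. RefSeq (GRCm38.p6) served for names, gene order and promoters. Protein classes were not analysed here.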

Additional observations from a re-analysis of the deposited data

Results flagged for a closer look

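Within groups of 4 or 5 arrays, 1 array stood far from the others in 31 of 256 groups tested over 60 named Zfp genes and 4 array measures; chance alone marks about 1 in 20. For no gene did every array move one way in SCA3 and the opposite way in wt. No cause was tested for any of these values.

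In wt CCI-779, replicate 1 read 9.83 for Zfp131 (others 9.73 to 9.75), 8.77 for Zfp318 (8.24 to 8.37), 7.98 for Zfp809 (7.35 to 7.50) and 3.87 for Zfp60 (5.85 to 6.05). The 3′ minus 5′ differences of that array were 0.28 for Gapdh (−0.44 to −0.39) and 2.55 for actin (1.20 to 1.53). In the same group replicate 5 read 6.92 for Zfp563 (7.33 to 7.34) and replicate 4 read 4.67 for Zfp975 (4.53 to 4.55).

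In SCA3 CCI-779, replicate 2 read 9.11 for Zfp326 (9.31 to 9.38) and 7.54 for Zfp948 (7.97 to 8.13). Replicate 5 read 5.86 for Zfp335 (6.50 to 6.56) and 4.90 for Zfp60 (5.24 to 5.34). Replicate 4 read 9.55 for Zfp36l2 (9.10 to 9.17), and replicate 3 read 7.89 for Zfp692 (8.22 to 8.29).

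In SCA3 placebo, replicate 2 read 10.92 for Zfp106 (11.03 to 11.06), 6.25 for Zfp503 (7.05 to 7.30) and 6.38 for Zfp592 (6.88 to 6.89). Replicate 4 read 9.28 for Zfp385b (9.63 to 9.70) and 6.36 for Zfp775 (6.04 to 6.10), with a Gapdh difference of −0.47 (−0.53 to −0.52). Replicate 5 read 8.72 for Zfp462 (8.49 to 8.56), and replicate 1 read 8.08 for Zfp955b (7.67 to 7.79).

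In wt placebo, replicate 3 read 4.77 for Zfp469 (4.66 to 4.67), 9.45 for Zfp638 (9.51 to 9.52), 8.73 for Zfp711 (8.96 to 9.0) and 4.31 for Zfp975 (4.49 to 4.52). Its median deviation over the 234 Zfp genes was −0.075 (−0.03 to −0.02). Replicate 1 read 9.99 for Zfp385b (9.60 to 9.67) and 8.96 for Zfp704 (8.72 to 8.73), replicate 2 read 7.77 for Zfp563 (7.44 to 7.45), and replicate 4 read 8.71 for Zfp36l2 (9.02 to 9.06).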

How the results depend on the processing

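The counts of Zfp genes past the threshold depended on the processing. For the 96 named differences, 2788 of the alternative values kept their side of the threshold. Of the others, 244 no longer passed, 22 newly passed and 3 turned round. Those 3 came from averaging a gene's probe sets, which gave Zfp106 −0.18 in SCA3 and −0.42 in wt and Zfp318 0.40 in SCA3. Many of the named differences did not pass in the main fit and counted as kept whenever they still did not. The 244 therefore come only from differences that had passed. A change of sign counted as turning round only where the main or the alternative fit passed. In SCA3, against 15 higher and 9 lower, the counts were 9 and 4 with all probe sets tested, 7 and 0 at an adjusted p of 0.01, 3 and 0 with a 1.5-fold minimum, 13 and 14 after quantile normalization and 12 and 16 after median centring. Without SCA3 CCI-779 replicates 2 and 5 they were 6 and 1, and 15 and 4 without these and wt CCI-779 replicate 1. After quantile normalization 9.62% of all genes were higher and 9.82% lower in SCA3, and 6.68% and 3.15% in wt. In wt, against 26 higher and 2 lower, the counts in the same settings were 15 and 0, 12 and 0, 9 and 1, 14 and 4 and 13 and 3, and 20 and 1 without the 3 arrays. They were 13 and 0 with the wt arrays fitted alone, 11 and 0 with the Gapdh covariate, and wt had 0 lower with averaged probe sets. With the spike-in covariate, which differs between drug and placebo in both genotypes, all 4 counts were 0. The median Zfp difference was −0.082 in SCA3 after median centring, and in wt it was −0.0018 after centring, 0.026 after quantile normalization, 0.058 with the spike-in and 0.034 with the Gapdh covariate. Leaving out 1 array gave 10 to 16 higher and 4 to 12 lower in SCA3, 15 to 28 higher and 0 to 2 lower in wt, and 0 to 1 for genotype under CCI-779, with median Zfp differences of −0.04 to 0.00 in SCA3 and 0.06 to 0.12 in wt. The count lower in SCA3 was 4 when SCA3 placebo replicate 5 or SCA3 CCI-779 replicate 2 or 5 was left out and 5 when SCA3 placebo replicate 3 or 4 was. The count higher in wt was 17 without wt CCI-779 replicate 1 or 3, 16 without wt placebo replicate 2 and 15 without wt placebo replicate 3. The count lower in wt was 1 without wt CCI-779 replicate 1 or 4 or wt placebo replicate 2 and 0 without wt placebo replicate 3 or 4. Without wt CCI-779 replicate 1 the genotype call under CCI-779 was Zfp60. Of the calls, 11 of 24 in SCA3 and 13 of 28 in wt held in all 19 such fits.

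Same-numbered pairs of arrays correlated from −0.31 to 0.29 (median 0.03), beside a median of −0.0054 over the other pairs. The labels do not say whether a shared number marks a batch. With the replicate block, which drops no array, 17 Zfp genes were higher and 11 lower in SCA3, and 16 higher and 1 lower in wt.

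Dim probe sets limit what can be seen, since 58 Zfp genes had a mean between 4 and 6. Protein classes of the Zfp genes were not run.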
